A study of Mus musculus with 30 samples.

Results

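Transcripts with a brief high or low at 14.5 days post coitum (dpc) were sought in RNA of pooled mouse embryonic ovaries. The 2 numbered samples labelled 14.5 dpc, with 6 arrays, were set against the 4 samples of the neighbouring ages 12.5 and 16.5 dpc, with 12 arrays, out of 10 samples and 30 arrays at 5 ages from 11.5 to 18.5 dpc. Each numbered sample was read on 3 Affymetrix designs with separate probe sets (arrays A, B and C), and each design was analysed on its own. A probe set was a member where both 14.5 dpc samples lay above, or both below, all 4 samples of 12.5 and 16.5 dpc on its array. Of 24825 probe sets tested, 2284 lay above all 4 (9.2% of those tested) and 2333 lay below all 4 (9.4% of those tested), 4617 members in all. Counted by gene, each taken by its brightest tested probe set, 1314 lay above and 1117 below all 4 samples, of 12589 genes. The mice at all ages had a mixed BL/6 and 129 background and total RNA was extracted with TRIzol, per the labels. They mention sexing by PCR for the male gene Sry for the gonads of the ages 11.5 and 12.5 dpc but not for the 14.5 and 16.5 dpc ovaries. Whether the pair of samples at an age came from separate pools is not stated, so the p-values cover only the spread within such pairs, which may be technical.

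In the mouse fetal ovary, germ cells stop dividing and enter meiosis after the gonad has taken its female course. Retinoic acid and BMP signals switch on Stra8, and the STRA8 protein with its partner MEIOSIN turns on genes of the meiotic chromosome axis, cohesion and recombination. The oocytes then pass through the stages of meiotic prophase while pregranulosa cells, endothelium, mesenchyme and surface epithelium form around them. In pooled ovaries, fewer cells of a type and less RNA per cell cannot be told apart.

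Peaks and dips were the members whose 14.5 dpc mean also differed from the average of the 12.5 and 16.5 dpc means at an adjusted p under 0.05 in limma. There were 45 peaks (0.181% of probe sets tested) and 32 dips (0.129% of probe sets tested), so the groups failed to overlap far more often than the difference passed the test. Without the adjustment, 3246 probe sets had p under 0.05. The peaks were 1.69- to 13.9-fold higher at 14.5 dpc, with a median of 2.41-fold, and the dips were 1.79- to 4.86-fold lower, with a median of 3.14-fold. All folds here are on the scale of log2(signal + 16), which understates the change of a gene with a low signal. Where one side has a signal of only a few units, the added 16 sets the size of the fold. Of the 45 peaks, 40 also lay above the 4 samples of 11.5 and 18.5 dpc, as did 29.5% of the 2284 probe sets above both neighbours. Of the 32 dips, 19 also lay below those 4 samples, as did 27.0% of the 2333 probe sets below both neighbours. The counts depended on single samples. Without 14.5 dpc replicate 2 there were 10 peaks and 11 dips, and without 14.5 dpc replicate 1 there were 21 and 47. Without 11.5 dpc replicate 1 or 2, which entered the fit only through the estimate of the spread, there were 169 and 175 peaks and 127 and 126 dips. Leaving out 1 sample of 12.5, 16.5 or 18.5 dpc gave 18 to 23 peaks and 8 to 15 dips. Of the 48 genes called, 6 stayed past the threshold under every setting run, namely Stra8, Meioc, Tex12, Xlr4a, Ube2t and Ap2b1.

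Array quality at 14.5 dpc was like that of its neighbours in level but not in every ratio between transcript ends. The median signal of the 6 samples lay between 55.1 and 60.1 on array A, between 74.2 and 81.7 on array B and between 53.4 and 59.7 on array C. The 3′ over 5′ signal ratio of the b-actin control, averaged over the 3 arrays of a number, was 1.71 and 2.19 at 14.5 dpc, against 1.18 and 1.30 at 12.5 dpc and 1.54 and 1.56 at 16.5 dpc. That of the PyruCarb control was 3.07 and 2.39 at 14.5 dpc, against 2.00 and 1.63 at 12.5 dpc and 2.10 and 2.14 at 16.5 dpc. On each array type the b-actin ratio was higher in the 14.5 dpc samples than in all 4 others. That of PyruCarb was higher in this average and on array C but overlapped on arrays A and B, and the averaged ratios of the TransRec, Gapdh and 18S rRNA controls overlapped. In 14.5 dpc replicate 2, though, the averaged TransRec and 18S rRNA ratios, 3.6 and 7.3, were above those of all 4 neighbouring samples. The part of these differences in the peaks and dips was not tested. The suffix f, i or r marks probe sets that are shared by a sequence family, short of probes or designed under relaxed rules. Such probe sets made up 15 of the 45 peaks and 6 of the 32 dips, beside 19.5% of all those tested. Without them there were 30 peaks and 25 dips. The Meioc probe set has the suffix i, so the settings in which Meioc stayed past the threshold did not include this one.

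**Figure D1:**
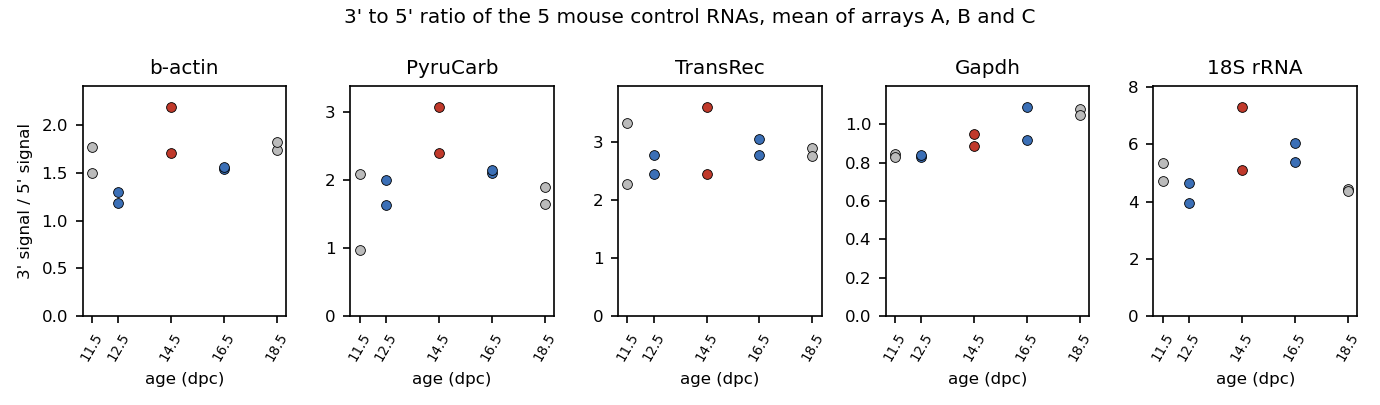
Ratio of the 3′ to the 5′ signal of 5 mouse control RNAs (vertical axes, no unit) against age in dpc, 1 point per sample, averaged over its 3 arrays. The red 14.5 dpc points lie above the 4 blue points of 12.5 and 16.5 dpc for b-actin and PyruCarb and among them for Gapdh. For TransRec and 18S rRNA, replicate 2 of 14.5 dpc lies above all 4 blue points and replicate 1 among them.

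Stra8 had the largest peak of the named genes. Its signal was 699 and 496 at 14.5 dpc, against 8.6 and 2.7 at 12.5 dpc and 62.4 and 83.1 at 16.5 dpc, and it was 2.2 and 3.2 at 11.5 dpc and 23 and 9.7 at 18.5 dpc. Both 14.5 dpc samples stood far above all 8 others. The 14.5 dpc mean was 28.2-fold above 12.5 dpc and 6.87-fold above 16.5 dpc (log2 difference from the 2 ages together 3.80, SE 0.26, adjusted p = 4.3e-05). Stra8 was also 1 of only 3 probe sets (0.0121% of those tested) that differed from each neighbour by itself in the stricter test, which takes the larger of the 2 p-values, with adjusted p = 0.0068 for Stra8. No probe set was lower than each neighbour at that threshold. With unadjusted p under 0.05 in limma, 353 were higher and 447 lower than each neighbour. Without either of the 14.5 dpc samples, or without 16.5 dpc replicate 1, no probe set was higher than each neighbour in that test, and without 12.5 dpc replicate 1 or 2 or 16.5 dpc replicate 2 there was 1.

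The other 2 probe sets higher than each neighbour lie on array A, are each annotated to several near-identical genes and are not named. One had a signal of 529 and 446 at 14.5 dpc, against 137 and 124 at 12.5 dpc and 104 and 138 at 16.5 dpc. Its counterpart had a signal of 852 and 742 at 14.5 dpc, against 146 and 173 at 12.5 dpc and 244 and 276 at 16.5 dpc. In both, the 14.5 dpc samples lay well above the other 4, and the adjusted p-values against each neighbour were 0.0063 and 0.041. The nearest probe set below both neighbours, of Hmg20b, which codes for a subunit of a histone demethylase complex, missed the threshold of the stricter test. It was picked out after its values were seen and had a signal of 38.4 and 35.3 at 14.5 dpc, against 213 and 187 at 12.5 dpc and 179.9 and 139.7 at 16.5 dpc, with adjusted p = 0.089 against each neighbour. This is a dimmer probe set of Hmg20b, and the brightest one overlapped, with 83.7 and 132 at 14.5 dpc, against 234 and 179 at 12.5 dpc and 109.5 and 103 at 16.5 dpc (log2 difference -0.43, adjusted p = 0.44).

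The start of Stra8 and the starts of 3 other peak genes of the meiotic lists are shown because the factors that switch such genes on bind there. Each line gives the 150 bases before the transcription start from RefSeq on GRCm38.p6, 5′ to 3′ on the strand of the gene. Capitals mark the letters searched for, on either strand: AGGTCA, the hexamer bound by retinoic acid receptors and other nuclear receptors, CNCCTCAG, the STRA8-MEIOSIN motif, TTCCCGC, bound by E2F factors, and CACGTG, the E-box.
Stra8, chr6:34920798-34920947, plus strand: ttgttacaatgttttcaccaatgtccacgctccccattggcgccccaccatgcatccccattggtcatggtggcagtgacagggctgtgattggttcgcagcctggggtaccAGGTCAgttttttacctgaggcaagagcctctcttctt
Tex12, chr9:50561269-50561418, minus strand: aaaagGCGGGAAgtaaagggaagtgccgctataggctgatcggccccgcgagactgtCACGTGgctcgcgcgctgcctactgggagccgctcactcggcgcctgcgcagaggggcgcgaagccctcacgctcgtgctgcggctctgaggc
Ugt8a, chr3:125938653-125938802, minus strand: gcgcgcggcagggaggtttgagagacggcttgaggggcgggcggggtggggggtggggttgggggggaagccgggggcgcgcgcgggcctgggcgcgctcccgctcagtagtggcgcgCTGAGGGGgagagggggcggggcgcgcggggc
Hsf2bp, chr17:32034509-32034658, minus strand: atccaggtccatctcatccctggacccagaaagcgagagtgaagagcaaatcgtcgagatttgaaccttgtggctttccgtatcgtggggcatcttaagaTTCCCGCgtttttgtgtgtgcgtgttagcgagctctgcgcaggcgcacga
The Stra8 window holds AGGTCA, the Tex12 window TTCCCGC on the opposite strand and CACGTG, the Ugt8a window CNCCTCAG on the opposite strand and the Hsf2bp window TTCCCGC. The same stretches of Rec8 and Meioc hold none of the 4 motifs. In Tex12, CNCCTCAG on the opposite strand begins 7 bases before the start, runs past the printed stretch and is not in capitals. A match describes the letters and does not show binding.

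RefSeq windows, from 250 bases before to 50 after the start, were at hand for 34 of the 36 peak genes, as 39 windows, and for 10087 of all 12589 genes tested, as 12847 windows. CNCCTCAG stood in 10 of the 39 windows (25.6%), against 9.09% of all windows. Counted by gene this was 7 of the 34 (20.6%), namely M1ap, Mphosph8, Pigp, Tcfl5, Tex12, Ugt8a and Xlr4a, against 11% of all genes, since Pigp alone has 4 windows with it. TTCCCGC stood in 20.5% of the peak windows, against 7.57% of all. CACGTG stood in 10.3% of the peak windows, against 9.42% of all, and AGGTCA in 10.3%, against 12.9% of all. The 12 dip genes had 13 windows, of which 15.4% held CNCCTCAG, 23.1% TTCCCGC, 0 CACGTG and 7.69% AGGTCA. These shares are descriptions of small sets, and the motif list was drawn up after the called genes were known.

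Of the meiotic entry list, 4 of 8 genes tested peaked, beside 0.286% of all 12589 genes (each gene taken by its tested probe set of highest mean signal). The list median was a log2 difference of 1.67, against 0.01 over all genes. The peaks of the list were Stra8, Meioc, Ugt8a and Rec8. This and the other gene lists were chosen with earlier results of these data known, so their shares are descriptions only. Meioc, whose protein works with the RNA-binding YTHDC2 to hold germ cells in the meiotic programme, had a signal of 762 and 411 at 14.5 dpc, against 1.6 and 0.8 at 12.5 dpc and 364 and 277 at 16.5 dpc. Meioc differed by 2.93 on the log2 scale (SE 0.30, adjusted p = 0.00057). Its 14.5 dpc samples were high and its 12.5 dpc samples near zero signal, and the 16.5 dpc samples came close behind. Against 16.5 dpc alone the difference was 1.73-fold with adjusted p = 0.29, so the call rests mostly on the difference from 12.5 dpc (adjusted p = 8.7e-06). The size of the difference depended on the number added before the logarithm, and was 3.79 with 4 and 1.99 with 64.

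Rec8, the cohesin subunit that holds sister chromatids together in meiosis, had a signal of 1563 and 1567 at 14.5 dpc, against 679 and 633 at 12.5 dpc and 605 and 941 at 16.5 dpc. Rec8 differed by 1.14 on the log2 scale (SE 0.21, adjusted p = 0.043). The 14.5 dpc samples were nearly equal and above all 8 others, 2.35-fold over 12.5 dpc and 2.05-fold over 16.5 dpc. The call was lost under 12 of 21 other settings, the largest adjusted p being 0.24. Ugt8a, which makes galactosylceramide, had a signal of 511 and 424 at 14.5 dpc, against 42.7 and 22.2 at 12.5 dpc and 368 and 148 at 16.5 dpc. Ugt8a differed by 2.14 on the log2 scale (SE 0.40, adjusted p = 0.046). It was high at 14.5 dpc and in 1 sample of 16.5 dpc, and its call was lost under 11 of 21 other settings. Of the 4 list members that did not peak, Stag3, the meiosis-specific STAG subunit of cohesin, passed the test but overlapped (log2 difference 1.33, adjusted p = 0.04). Sycp3, of the chromosome axis, had a signal of 95.2 and 180.3 at 14.5 dpc, against 6.2 and 9.1 at 12.5 dpc and 109.5 and 9.7 at 16.5 dpc. Sycp3 differed by 2.01 on the log2 scale (SE 0.57, adjusted p = 0.16). Of its 16.5 dpc samples 1 lay between the 14.5 dpc samples. Dazl, an RNA-binding protein that makes germ cells competent for meiosis, had 1185 and 431 at 14.5 dpc, against 926 and 532 at 12.5 dpc and 640.3 and 736 at 16.5 dpc, and its groups overlapped (adjusted p = 0.98). Ythdc2 differed by 0.26 (adjusted p = 0.79).

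**Figure D2:**
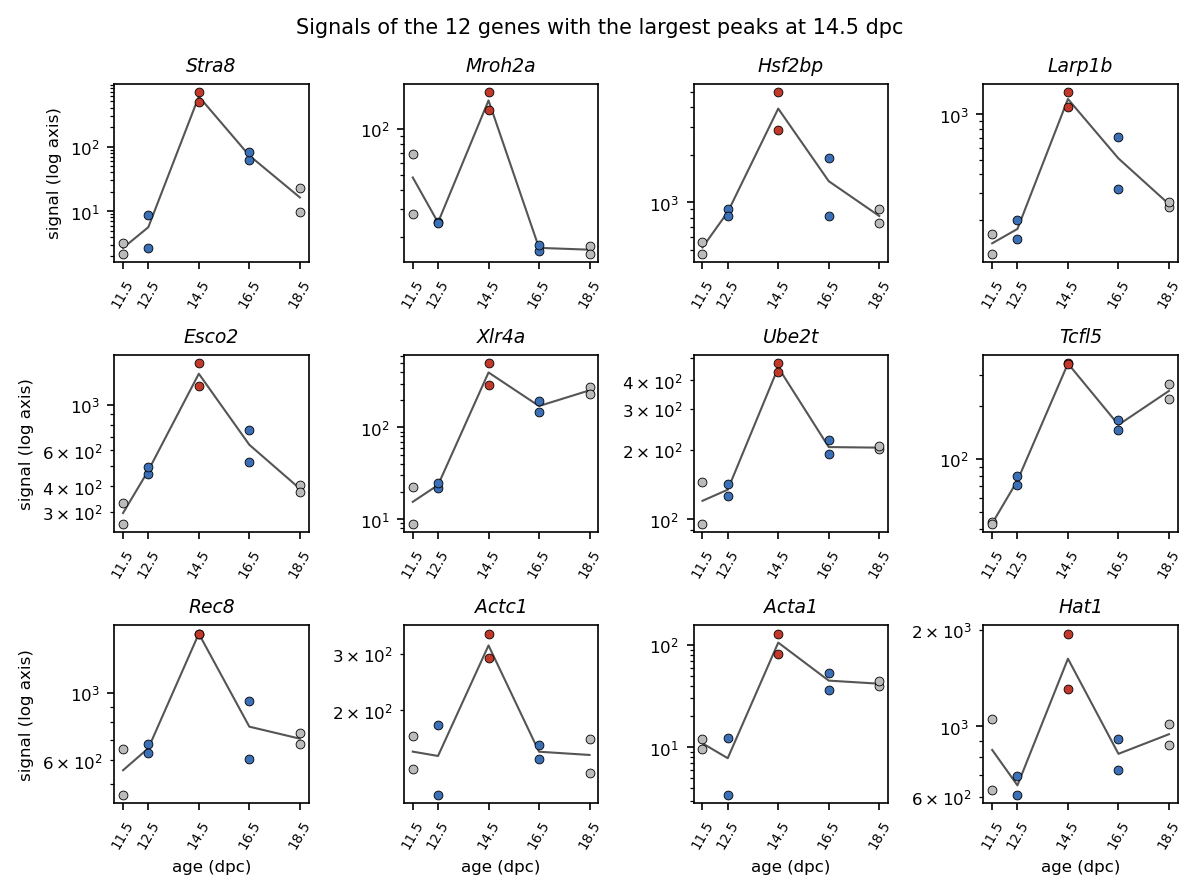
Signal (log axes, arbitrary units scaled to a mean of 125) against age in dpc for the 12 genes with the largest peaks, 1 point per sample and a line through the age means, 14.5 dpc in red, 12.5 and 16.5 dpc in blue. Both red points lie above all 4 blue points in every panel, and Stra8 spans the widest range, with 699 and 496 at 14.5 dpc.

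Genes of meiotic chromosome structure were among the peaks. Among the 48 tested genes of the meiotic entry, synaptonemal complex, recombination and cohesin lists combined, 7 peaked and none dipped. Of the 48, 8 lay above (16.7%) and 3 below (6.25%) all 4 neighbouring samples, beside 10.4% and 8.87% of all genes. The 4 peaks of the meiotic entry list are among these. Of the 22 recombination genes, 1 lay above (4.55%) and 1 below (4.55%). Of the 10 synaptonemal complex genes, 2 lay above (20%) and 1 below (10%). Of the 11 cohesin genes, 2 lay above (18.2%), Rec8 and Esco2, and 1 below (9.09%). Tex12, a central element protein of the synaptonemal complex, the zipper between paired chromosomes, had a signal of 2909.5 and 3245 at 14.5 dpc, against 280.1 and 274 at 12.5 dpc and 2027 and 1800.1 at 16.5 dpc. Tex12 differed by 2.04 on the log2 scale (SE 0.17, adjusted p = 0.00015). The 14.5 dpc mean stood 10.5-fold above 12.5 dpc (adjusted p = 7.8e-06) and 1.6-fold above 16.5 dpc (adjusted p = 0.12). Hsf2bp, which brings BRCA2 to meiotic breaks, had a signal of 2849.6 and 4985 at 14.5 dpc, against 909 and 824 at 12.5 dpc and 1902 and 817 at 16.5 dpc. Hsf2bp differed by 1.84 on the log2 scale (SE 0.30, adjusted p = 0.025). Its lower 14.5 dpc sample was still above its higher 16.5 dpc sample. On this probe set, and on the next brightest, the suffix f marks probes shared by a sequence family. The next brightest overlapped with 16.5 dpc, with 998 and 1327 at 14.5 dpc, against 458 and 434 at 12.5 dpc and 1129 and 865 at 16.5 dpc (log2 difference 0.78, adjusted p = 0.16). Esco2, the acetyltransferase that makes cohesin hold on to chromatin in S phase, had a signal of 1606 and 1233 at 14.5 dpc, against 459.7 and 495 at 12.5 dpc and 751 and 525 at 16.5 dpc. Esco2 differed by 1.34 on the log2 scale (SE 0.19, adjusted p = 0.008). It was 2.89-fold above 12.5 dpc (adjusted p = 0.0028) and 2.21-fold above 16.5 dpc (adjusted p = 0.035), each adjusted on its own. Esco2 did not pass the stricter test against each neighbour (adjusted p = 0.48). A second, dimmer probe set of Esco2 overlapped between the ages, with 96.3 and 48.2 at 14.5 dpc, against 31.6 and 37 at 12.5 dpc and 53.6 and 68.1 at 16.5 dpc.

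Several other meiotic genes were as high or higher at 16.5 dpc. Of the 100 probe sets past the threshold, 23 had samples that overlapped with a neighbouring age, 21 of them higher and 2 lower. Sycp1, of the transverse filaments of the synaptonemal complex, had a signal of 404 and 239 at 14.5 dpc, against 7.5 and 13 at 12.5 dpc and 609.9 and 748 at 16.5 dpc. It passed the test (log2 difference 1.29, SE 0.20, adjusted p = 0.019) although 16.5 dpc was the highest of the 3 ages. Terb1, which ties telomeres to the nuclear envelope, had 632 and 716 at 14.5 dpc, against 5.1 and 3 at 12.5 dpc and 792 and 734 at 16.5 dpc. Terb1 differed by 2.46 on the log2 scale (SE 0.30, adjusted p = 0.0042). Syce2 lay above all 4 but missed the threshold. Syce2 differed by 0.80 on the log2 scale (SE 0.16, adjusted p = 0.055). Spo11, which makes the meiotic DNA breaks, had 1223 and 968 at 14.5 dpc, against 305 and 293 at 12.5 dpc and 1916 and 1584 at 16.5 dpc, with 16.5 dpc highest (adjusted p = 0.3). Dmc1, the meiotic strand exchange protein, had 129 and 77.6 at 14.5 dpc, against 23.2 and 33 at 12.5 dpc and 105 and 107 at 16.5 dpc and overlapped with 16.5 dpc (adjusted p = 0.24). Of the other overlapping calls several were lower at 16.5 dpc than at 14.5 dpc. Dppa3, a germ cell and oocyte gene, had 479 and 347 at 14.5 dpc, against 731 and 506 at 12.5 dpc and 33.2 and 25.3 at 16.5 dpc. Dppa3 did not stay low, and the oldest age had its highest signals, 1238 and 1086. Hbb-y, an embryonic globin, had 7712 and 7288 at 14.5 dpc, against 8336 and 9950.2 at 12.5 dpc and 487 and 435 at 16.5 dpc. Both were low only at 16.5 dpc of the 3 ages, and neither was a peak.

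X-linked germ cell genes were among the peaks. Of the 36 peak genes 4 lay on the X chromosome (11.1%), against 393 of 12566 genes with a known chromosome (3.13%), and none of the 12 dip genes did. Xlr4a, of an X-linked family similar to the axis protein SYCP3, had a signal of 507 and 289 at 14.5 dpc, against 22.1 and 25.1 at 12.5 dpc and 195 and 148 at 16.5 dpc. Xlr4a differed by 2.22 on the log2 scale (SE 0.24, adjusted p = 0.0017). With 279 and 229 at 18.5 dpc, all samples from 14.5 dpc on were far above 12.5 dpc. Rhox13, a reproductive homeobox gene of germ cells, had 1695 and 2427 at 14.5 dpc, against 408 and 242 at 12.5 dpc and 1514 and 1434 at 16.5 dpc. Rhox13 differed by 1.54 on the log2 scale (SE 0.22, adjusted p = 0.011). Xlr5a had 435 and 337 at 14.5 dpc, against 65.4 and 69.1 at 12.5 dpc and 284 and 309 at 16.5 dpc. Xlr5a differed by 1.31 on the log2 scale (SE 0.24, adjusted p = 0.039). Both were high at 14.5 and 16.5 dpc, with folds over 16.5 dpc of 1.37 and 1.28 that did not pass by themselves (adjusted p = 0.42 and 0.58). Trap1a, a tumour rejection antigen gene, had 452 and 347 at 14.5 dpc, against 223 and 212 at 12.5 dpc and 92.5 and 127 at 16.5 dpc. Trap1a differed by 1.28 on the log2 scale (SE 0.16, adjusted p = 0.0062). Here 16.5 dpc was the lowest of the 3 ages. The Xlr and Rhox genes are families of close copies, and probes can be shared between them. Rhox5 and Rhox9, other homeobox genes of the cluster, passed the test but overlapped with 12.5 dpc. Rhox5 had 953 and 677 at 14.5 dpc, against 1051 and 984 at 12.5 dpc and 105 and 108 at 16.5 dpc. Rhox9 had 2838 and 4302 at 14.5 dpc, against 5633 and 4717 at 12.5 dpc and 424 and 252 at 16.5 dpc. Both were lower at 16.5 dpc (adjusted p = 4.3e-05 and 5.7e-05 against 14.5 dpc) and were no peak.

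**Figure D3:**
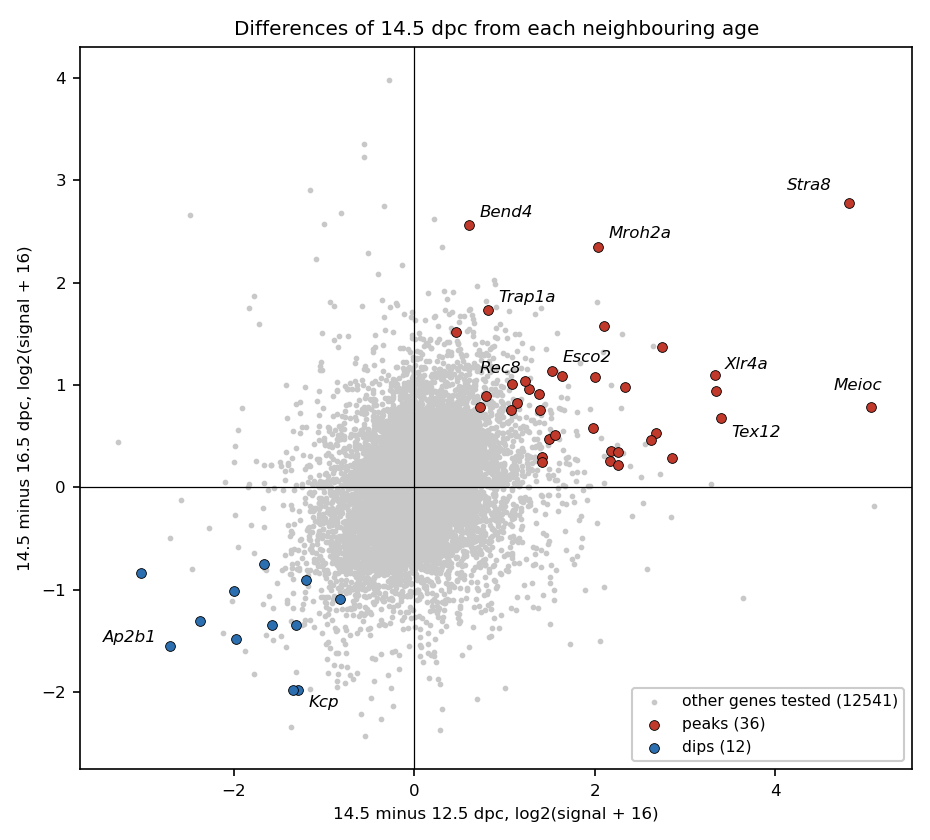
Difference of the 14.5 dpc mean from 12.5 dpc (horizontal) and from 16.5 dpc (vertical), both as log2(signal + 16), 1 point per gene for 12589 genes. Most of the 36 peaks lie farther to the right than up, Bend4 and Trap1a farther up, and Stra8 stands apart in both directions.

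The 2 differences in the plot share the 14.5 dpc samples, so their sizes are given side by side. By itself, 14.5 minus 12.5 dpc called 269 probe sets higher (1.08% of those tested) and 143 lower (0.576% of those tested), and 14.5 minus 16.5 dpc called 98 higher (0.395% of those tested) and 73 lower (0.294% of those tested). Of the 45 peaks, 40 were called against 12.5 dpc and 15 against 16.5 dpc, and of the 32 dips 28 and 12. The 16.5 dpc mean exceeded the 12.5 dpc mean in 34 of 45 peaks, beside 47.3% of all probe sets above both neighbours, and lay below it in 24 of 32 dips, beside 48.5% of those below both. Most peaks were thus high at 14.5 dpc and partly high at 16.5 dpc. Fhl4, a LIM domain gene of germ cells, had 1576 ± 173 at 14.5 dpc, 233 ± 23.6 at 12.5 dpc and 1093 ± 166 at 16.5 dpc (mean ± SD, n = 2 each). A dimmer probe set of Fhl4 overlapped with 16.5 dpc, with 249 and 224 at 14.5 dpc, against 285 and 237 at 16.5 dpc. Acer3, an alkaline ceramidase, had 2525 ± 74.5 at 14.5 dpc, 552 ± 78.1 at 12.5 dpc and 2104 ± 146 at 16.5 dpc. M1ap, needed for male meiosis, had 2847 ± 279.6 at 14.5 dpc, 1053 ± 24.4 at 12.5 dpc and 2319 ± 331 at 16.5 dpc. These stood 1.44-, 1.2- and 1.23-fold over 16.5 dpc, differences that did not pass by themselves (adjusted p = 0.33, 0.55 and 0.48). Of the same kind were Mlf1, Pde6d, Setdb2, a histone methyltransferase relative, Pigp, of the first step of GPI anchor synthesis, Tpgs2, Ddrgk1 and 4930524B15Rik. They stood 1.16- to 1.49-fold over 16.5 dpc and 2.68- to 7.24-fold over 12.5 dpc.

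A few peaks leaned the other way, low at 16.5 dpc. Bend4, which codes for a BEN domain protein, had a signal of 167 and 218 at 14.5 dpc, against 131 and 109 at 12.5 dpc and 17 and 21.1 at 16.5 dpc. Bend4 differed by 1.59 on the log2 scale (SE 0.24, adjusted p = 0.013). Its 12.5 dpc samples came near those of 14.5 dpc, and only the difference from 16.5 dpc passed by itself (5.91-fold, adjusted p = 0.00059). Cyct, the testis form of cytochrome c, had 118 and 109 at 14.5 dpc, against 78.2 and 77.9 at 12.5 dpc and 29.1 and 29.3 at 16.5 dpc. Cyct differed by 0.99 on the log2 scale (SE 0.18, adjusted p = 0.037). Here too 12.5 dpc came next and 16.5 dpc was low.

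Other peaks belonged to none of the gene lists. Ube2t, the ubiquitin-conjugating enzyme of the Fanconi anaemia DNA repair pathway, had a signal of 475 and 431 at 14.5 dpc, against 142 and 126 at 12.5 dpc and 191 and 219 at 16.5 dpc. Ube2t differed by 1.36 on the log2 scale (SE 0.17, adjusted p = 0.0045). Both 14.5 dpc samples were far above the other 8. Each difference passed when adjusted on its own, 3.12-fold over 12.5 dpc (adjusted p = 0.00087) and 2.12-fold over 16.5 dpc (adjusted p = 0.03). Ube2t did not pass the stricter test against each neighbour (adjusted p = 0.39). Hat1, which acetylates newly made histone H4, had 1948 and 1302 at 14.5 dpc, against 696 and 607 at 12.5 dpc and 728 and 908 at 16.5 dpc. Hat1 differed by 1.11 on the log2 scale (SE 0.21, adjusted p = 0.047). Both 14.5 dpc samples lay above every other sample, but the call was lost in 12 of 20 other settings. A dimmer probe set of Hat1 missed the threshold (log2 difference 0.43, adjusted p = 0.42). Tcfl5, a helix-loop-helix factor of germ cells, had 351 and 344 at 14.5 dpc, against 70.8 and 79.6 at 12.5 dpc and 147 and 165 at 16.5 dpc. Tcfl5 differed by 1.54 on the log2 scale (SE 0.27, adjusted p = 0.036). The 18.5 dpc samples, with 267 and 219, came next. A dimmer probe set of Tcfl5 overlapped with 16.5 dpc, with 72.1 and 77.9 at 14.5 dpc, against 80.7 and 59.9 at 16.5 dpc. Mphosph8, a reader of methylated histone H3 in the HUSH silencing complex, peaked on 2 probe sets. The brighter had 1553 and 1504 at 14.5 dpc, against 573 and 585 at 12.5 dpc and 958 and 675 at 16.5 dpc. Mphosph8 differed by 1.14 on the log2 scale (SE 0.18, adjusted p = 0.015). The dimmer had 672 and 606 at 14.5 dpc, against 216 and 191 at 12.5 dpc and 447 and 377 at 16.5 dpc (adjusted p = 0.011). By themselves, the differences of Hat1, Tcfl5 and the brighter Mphosph8 probe set from 16.5 dpc did not pass (adjusted p = 0.091, 0.12 and 0.057).

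Larp1b, an RNA-binding La-related protein, had a signal of 1119.6 and 1399 at 14.5 dpc, against 199 and 150.4 at 12.5 dpc and 702 and 318 at 16.5 dpc. Larp1b differed by 2.06 on the log2 scale (SE 0.29, adjusted p = 0.011). A dimmer probe set of Larp1b had 175 and 161 at 14.5 dpc, against 37.3 and 13.2 at 12.5 dpc and 205 and 197 at 16.5 dpc, with 16.5 dpc highest. Ssb, the La protein that binds the ends of new small RNAs, had 352 ± 61.1 at 14.5 dpc, 194 ± 3.46 at 12.5 dpc and 181 ± 10.4 at 16.5 dpc (mean ± SD, n = 2 each). Mrpl35, of the mitochondrial ribosome, had 634 ± 26.2 at 14.5 dpc, 279 ± 8.98 at 12.5 dpc and 354 ± 41.9 at 16.5 dpc. Haus3, of the augmin complex that branches spindle microtubules, had 436 ± 59.6 at 14.5 dpc, 257 ± 25.9 at 12.5 dpc and 245 ± 0.283 at 16.5 dpc. Each was called (1.79-, 1.97- and 1.69-fold, adjusted p = 0.04, 0.048 and 0.04), and each lost its call under 10 or more other settings. A second Haus3 probe set overlapped, with 62.9 and 112 at 14.5 dpc, against 117 and 139 at 12.5 dpc and 133 and 21.2 at 16.5 dpc. Zscan29 and Echdc1 were 1.89- and 2.1-fold higher (adjusted p = 0.037 and 0.043). In all, 13 of the called genes had 18 other tested probe sets, of which 17 had a difference of the same sign, 6 without overlap. Only the dimmer Mphosph8 probe set named above passed the threshold. Some differences of the same sign were close to nil, such as -0.03 for Ston2 and 0.05 for a probe set of Tpgs2.

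A pair of striated muscle actins peaked too. Actc1, the cardiac alpha-actin, had a signal of 289.7 and 346 at 14.5 dpc, against 179.8 and 109 at 12.5 dpc and 142 and 156 at 16.5 dpc. Actc1 differed by 1.05 on the log2 scale (SE 0.19, adjusted p = 0.042). On this probe set the suffix f marks probes shared by a sequence family. A dimmer Actc1 probe set, with the suffix i, had 55.8 and 71 at 14.5 dpc, against 0.5 and 21.5 at 12.5 dpc and 3 and 3.7 at 16.5 dpc. It missed the threshold (log2 difference 1.85, adjusted p = 0.061) and passed the filter on low signals only through 14.5 dpc. Acta1, the skeletal alpha-actin, had 81.3 and 129 at 14.5 dpc, against 3.4 and 12.2 at 12.5 dpc and 53.2 and 36.2 at 16.5 dpc. Acta1 differed by 1.66 on the log2 scale (SE 0.27, adjusted p = 0.026). The samples of 14.5 dpc were the highest of all 10 for both. Acta1 and Mroh2a were the 2 peaks that passed the filter on low signals only through 14.5 dpc, so the filter favoured a difference in them. Mroh2a had 133 and 173 at 14.5 dpc, against 24.9 and 24.5 at 12.5 dpc and 16.2 and 17.6 at 16.5 dpc (log2 difference 2.20, SE 0.36, adjusted p = 0.023), and 68.8 and 28 at 11.5 dpc. The smooth muscle genes of the mesenchyme list lay on both sides. Myh11, smooth muscle myosin, had 124 and 158 at 14.5 dpc, against 123 and 93 at 12.5 dpc and 111 and 85.8 at 16.5 dpc, above all 4. Actg2, the enteric actin, had 205 and 164 at 14.5 dpc, against 223 and 241 at 12.5 dpc and 229 and 215 at 16.5 dpc, below all 4. Neither passed the threshold (adjusted p = 0.49 and 0.42). The part of muscle cells in the pools was not tested.

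**Figure D4:**
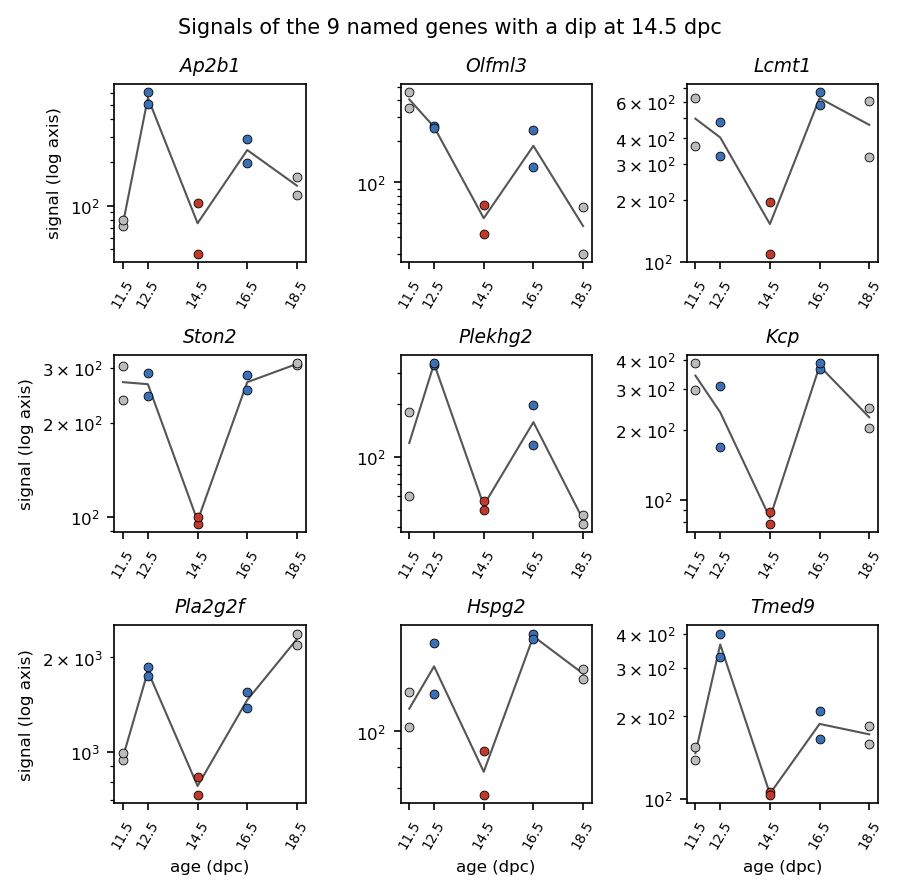
Signal (log axes, arbitrary units scaled to a mean of 125) against age in dpc for the 9 named genes with a dip, 1 point per sample and a line through the age means, 14.5 dpc in red, 12.5 and 16.5 dpc in blue. Both red points lie below all 4 blue points in every panel, while 11.5 dpc or 18.5 dpc was as low or lower for Ap2b1, Olfml3 and Plekhg2.

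Ap2b1, a subunit of the clathrin adaptor of endocytosis, had a signal of 46.7 and 105 at 14.5 dpc, against 609 and 503 at 12.5 dpc and 288 and 197 at 16.5 dpc. Ap2b1 differed by -2.13 on the log2 scale (SE 0.27, adjusted p = 0.0042). It was 6.55-fold below 12.5 dpc and 2.92-fold below 16.5 dpc, but 11.5 dpc, with 72.1 and 79.9, was as low. Its 3 other tested probe sets overlapped, for example with 54.7 and 47.9 at 14.5 dpc, against 122 and 93 at 12.5 dpc and 83.7 and 51.7 at 16.5 dpc. Ston2, a stonin that sorts synaptic vesicle proteins at clathrin pits, had 94.4 and 99.4 at 14.5 dpc, against 288 and 242 at 12.5 dpc and 255 and 283 at 16.5 dpc. Ston2 differed by -1.32 on the log2 scale (SE 0.23, adjusted p = 0.034). The 14.5 dpc samples were the lowest of all 10. The dimmer probe set of Ston2 overlapped, with 190.2 and 141 at 14.5 dpc, against 183 and 147 at 12.5 dpc and 151 and 191 at 16.5 dpc. Tmed9, a cargo receptor between endoplasmic reticulum and Golgi, had 106 and 103 at 14.5 dpc, against 400.0 and 329.7 at 12.5 dpc and 209 and 166 at 16.5 dpc. Tmed9 differed by -1.20 on the log2 scale (SE 0.15, adjusted p = 0.0066). Its 12.5 dpc samples stood above all other ages.

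Kcp, a secreted chordin-like protein that modulates BMP signalling, had a signal of 88.7 and 78.3 at 14.5 dpc, against 307 and 168 at 12.5 dpc and 365 and 385 at 16.5 dpc. Kcp differed by -1.63 on the log2 scale (SE 0.23, adjusted p = 0.008). The 14.5 dpc samples were the lowest of all 10. Each difference passed when adjusted on its own, from 12.5 dpc (2.45-fold, adjusted p = 0.026) and from 16.5 dpc (3.93-fold, adjusted p = 0.0037). Kcp did not pass the stricter test against each neighbour (adjusted p = 0.54). Hspg2, perlecan of the basement membrane, had 88.1 and 67 at 14.5 dpc, against 174 and 127 at 12.5 dpc and 185 and 178 at 16.5 dpc. Hspg2 differed by -0.96 on the log2 scale (SE 0.17, adjusted p = 0.039). It was lowest at 14.5 dpc of all ages. Olfml3, a secreted olfactomedin-like protein, had 67.8 and 41.5 at 14.5 dpc, against 258 and 253 at 12.5 dpc and 242 and 129.9 at 16.5 dpc. Olfml3 differed by -1.73 on the log2 scale (SE 0.29, adjusted p = 0.026). The 18.5 dpc samples, with 65.7 and 30, were as low. Pla2g2f, a secreted phospholipase, had 828 and 728 at 14.5 dpc, against 1863 and 1746 at 12.5 dpc and 1376 and 1548 at 16.5 dpc. Pla2g2f differed by -1.05 on the log2 scale (SE 0.16, adjusted p = 0.016). Its 14.5 dpc samples were the lowest of all 10.

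Plekhg2 had a signal of 50 and 55.9 at 14.5 dpc, against 337 and 345 at 12.5 dpc and 198 and 118 at 16.5 dpc. Plekhg2 differed by -1.83 on the log2 scale (SE 0.33, adjusted p = 0.036). The level at 18.5 dpc was lower still, with 46.5 and 41.2. Lcmt1, the enzyme that methylates a protein phosphatase catalytic subunit, had 196 and 109 at 14.5 dpc, against 329 and 476 at 12.5 dpc and 670.1 and 582 at 16.5 dpc. Lcmt1 differed by -1.66 on the log2 scale (SE 0.32, adjusted p = 0.047). Its signals were 366 and 628 at 11.5 dpc and 325 and 603 at 18.5 dpc, all above 14.5 dpc. The remaining dips were Sprr2d, Sphkap and Polr2i. Sprr2d, of the small proline-rich family of close copies, had 15.7 and 7.2 at 14.5 dpc, against 235 and 181 at 12.5 dpc and 38.4 and 27.6 at 16.5 dpc. Sprr2d differed by -1.94 on the log2 scale (SE 0.36, adjusted p = 0.043). Most of this was the difference from 12.5 dpc, 8.19-fold, against 1.8-fold from 16.5 dpc (adjusted p = 0.0028 and 0.35). Sphkap, an anchor of protein kinase A, had 29.3 and 16 at 14.5 dpc, against 155 and 119.7 at 12.5 dpc and 65 and 56.4 at 16.5 dpc. Sphkap differed by -1.50 on the log2 scale (SE 0.27, adjusted p = 0.036). Its signals at 11.5 dpc were 350.1 and 471, the highest of all ages. Polr2i, a subunit of RNA polymerase II, had 16.5 and 35.7 at 14.5 dpc, against 132 and 86 at 12.5 dpc and 70.3 and 109 at 16.5 dpc. Polr2i differed by -1.46 on the log2 scale (SE 0.28, adjusted p = 0.048).

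Many dips came from a dimmer probe set of a gene. Of 28 dip genes, 12 dipped on their brightest tested probe set and 16 on another one, and in those 16 the brightest probe set lay lower in 11 and higher in 5, below all 4 samples in none, with log2 differences between -0.55 and 0.79. Of 40 peak genes, 36 peaked on their brightest probe set and 4 on another one, and in those 4 the brightest probe set lay higher in 1. As examples chosen after their values were seen, a dimmer probe set of Gcn1, an activator of the amino acid stress kinase, had 63 and 48.9 at 14.5 dpc, against 221 and 211 at 12.5 dpc and 155 and 197 at 16.5 dpc. On its brightest probe set Gcn1 had 177 and 163 at 14.5 dpc, against 203 and 131 at 12.5 dpc and 129.7 and 131 at 16.5 dpc. A dimmer probe set of Cald1, caldesmon, had 248 and 171 at 14.5 dpc, against 439 and 538 at 12.5 dpc and 465 and 464 at 16.5 dpc. On its brightest probe set Cald1 had 983 and 857 at 14.5 dpc, against 911 and 1014 at 12.5 dpc and 1023 and 1072 at 16.5 dpc, with overlap. Another 4 peaks and 4 dips had no symbol or several and are not named.

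The other gene lists held few peaks or dips, each gene again taken by its brightest probe set. Their counts stand beside 10.4% above and 8.87% below all 4 samples over all genes. List members that were not called, unless in a fixed set, were picked out after their values were seen. Pregranulosa and supporting cell genes had 1 dip (Sprr2d) among 28 tested, with 3 above (10.7%) and 7 below (25%) all 4 samples and a median log2 difference of -0.10. Foxl2, the factor that keeps female identity, had 374 and 328 at 14.5 dpc, against 243 and 92.8 at 12.5 dpc and 793 and 858 at 16.5 dpc, with 16.5 dpc highest (adjusted p = 0.97). Wnt4, a signal of ovary formation, had 852 and 1673 at 14.5 dpc, against 1428 and 1517 at 12.5 dpc and 1541 and 1568 at 16.5 dpc and overlapped. Fst, the activin-binding follistatin, had 203 and 119 at 14.5 dpc, against 413 and 236 at 12.5 dpc and 317 and 444 at 16.5 dpc, below all 4 but not past the threshold. Fst differed by -1.07 on the log2 scale (SE 0.31, adjusted p = 0.18). Bmp2, made by pregranulosa cells, had 1396 and 796 at 14.5 dpc, against 569 and 703 at 12.5 dpc and 655 and 713 at 16.5 dpc, above all 4 but likewise not past the threshold. Bmp2 differed by 0.67 on the log2 scale (SE 0.26, adjusted p = 0.3). Nr0b1, an X-linked nuclear receptor of supporting cells, had 92 and 94.9 at 14.5 dpc, against 246 and 204 at 12.5 dpc and 130.3 and 178 at 16.5 dpc. Nr0b1 differed by -0.88 on the log2 scale (SE 0.20, adjusted p = 0.084).

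BMP, TGF-beta and activin genes had no peak or dip among 35 tested, with 3 above (8.57%) and 9 below (25.7%) all 4 samples and a median of -0.19. The 9 included Smad2, a carrier of TGF-beta signals to the nucleus, with 155 and 153 at 14.5 dpc, against 245 and 226 at 12.5 dpc and 276 and 224 at 16.5 dpc. Smad2 differed by -0.60 on the log2 scale (SE 0.16, adjusted p = 0.13). Another was Fstl1, a follistatin-like secreted protein, with 153 and 178 at 14.5 dpc, against 269 and 241 at 12.5 dpc and 291 and 235 at 16.5 dpc. Fstl1 differed by -0.60 on the log2 scale (SE 0.18, adjusted p = 0.18). Wnt genes had none called among 27, 0 above and 3 below (11.1%), with a median of -0.21. Endothelial genes had none called among 18, 1 above (5.56%) and 5 below (27.8%), with a median of -0.36. One of the 5, Ramp2, a receptor partner in vessels, had 94.9 and 97.3 at 14.5 dpc, against 127 and 147 at 12.5 dpc and 188 and 161 at 16.5 dpc. Ramp2 differed by -0.61 on the log2 scale (SE 0.18, adjusted p = 0.19). The summed signal of the 3 endothelial markers Cdh5, Emcn and Pecam1 was 202 and 173 at 14.5 dpc, against 326 and 435 at 12.5 dpc and 267 and 211 at 16.5 dpc. That of the 3 macrophage markers C1qa, C1qb and Csf1r was 115 in both 14.5 dpc samples, against 142 and 175 at 12.5 dpc and 249 and 147 at 16.5 dpc. Both sums were below all 4 neighbouring samples, but none of the 3 endothelial markers was so by itself. Emcn had 88.3 and 61.2 at 14.5 dpc and was lower still at the oldest age, with 50.2 and 41.5. Cdh5 and Pecam1 overlapped between 14.5 dpc and the oldest age. Of the 3 macrophage markers, 2 were below all 4 and C1qa overlapped. Their signals were low, with 10.2 and 28.6 for C1qb at 14.5 dpc. The part of these markers in the dips was not tested. Mesenchyme, smooth muscle and matrix genes had none called among 36, 1 above (2.78%) and 7 below (19.4%). One of the 7, Pdgfra, a growth factor receptor of mesenchyme, had 286 and 333 at 14.5 dpc, against 364 and 427 at 12.5 dpc and 767 and 493 at 16.5 dpc. Pdgfra differed by -0.65 on the log2 scale (SE 0.17, adjusted p = 0.13).

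**Figure D5:**
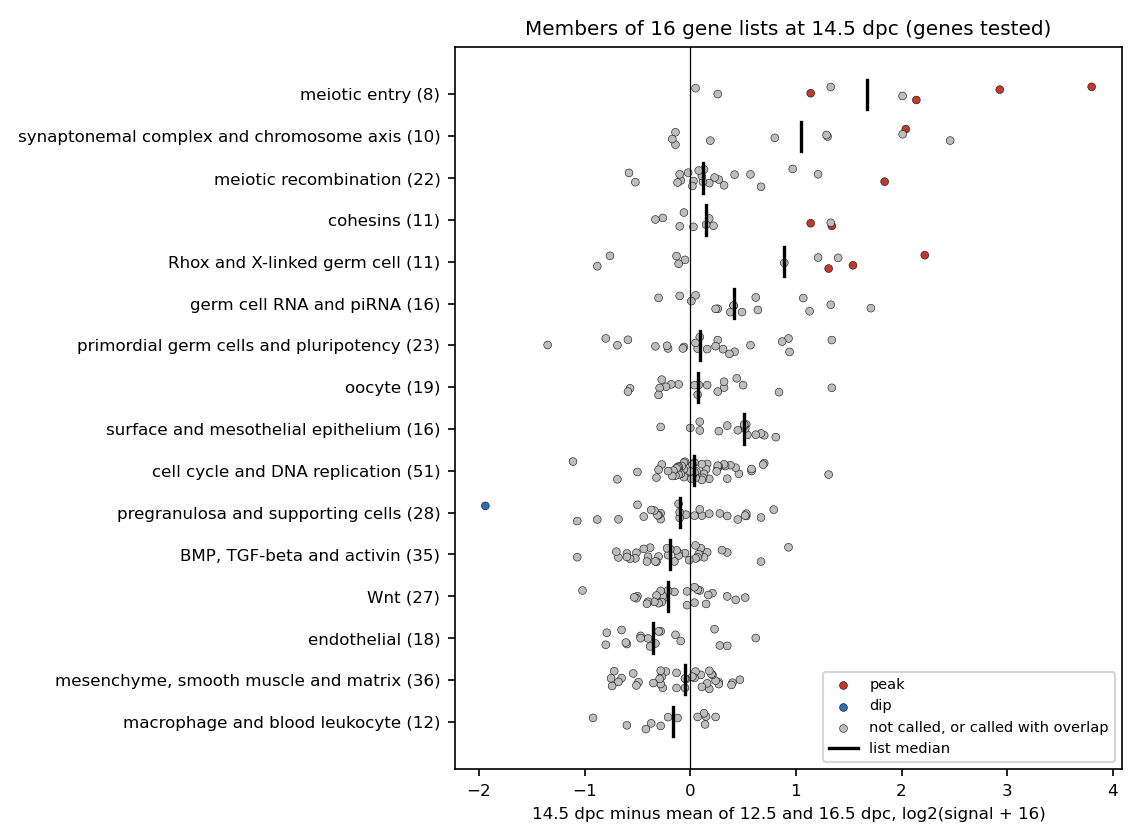
Difference of 14.5 dpc from the mean of 12.5 and 16.5 dpc (log2 of signal + 16) for each tested gene of 16 lists, 1 point per gene with the list size in brackets, peaks red, dips blue and the list median as a bar. The meiotic entry list has the highest median, 1.67, and the endothelial list the lowest, -0.36.

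The germ cell RNA, primordial germ cell and oocyte lists showed no peak. Germ cell RNA and piRNA genes had 2 above (12.5%) and none below among 16, with a median of 0.41. Among them Rnf17, a tudor protein of piRNA granules, had 324 and 196 at 14.5 dpc, against 46.4 and 47.3 at 12.5 dpc and 86.4 and 96.6 at 16.5 dpc. Rnf17 differed by 1.71 on the log2 scale (SE 0.45, adjusted p = 0.13). Primordial germ cell genes had 2 above (8.7%) and none below among 23, with a median of 0.09. Pou5f1, the pluripotency factor of early germ cells, had 122 and 102 at 14.5 dpc, against 521 and 313 at 12.5 dpc and 30.7 and 21.7 at 16.5 dpc, in descending order over the 3 ages (adjusted p = 0.93). Dmrt1, a germ and supporting cell factor, had 59.2 and 44.9 at 14.5 dpc, against 68.9 and 55.3 at 12.5 dpc and 4.1 and 2.9 at 16.5 dpc (adjusted p = 0.24). Ddx4, the germ cell helicase vasa, had 279 and 294 at 14.5 dpc, against 178 and 138 at 12.5 dpc and 275 and 294 at 16.5 dpc, equal at 14.5 and 16.5 dpc (adjusted p = 0.42). The summed signal of the germ cell markers Dazl, Ddx4, Kit and Pou5f1 was 1656 and 923 at 14.5 dpc, against 1781 and 1101 at 12.5 dpc and 983 and 1084 at 16.5 dpc, and the ages overlapped. Oocyte genes had 2 above (10.5%) and none below among 19.

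Cell cycle and DNA replication genes had 7 above (13.7%, against 10.4% of all genes) and none below all 4 samples among 51 and none called, with a median of 0.04. Prim1, the small subunit of primase, came nearest to the threshold with 341 and 244 at 14.5 dpc, against 113 and 137 at 12.5 dpc and 82.1 and 103 at 16.5 dpc. Prim1 differed by 1.31 on the log2 scale (SE 0.27, adjusted p = 0.061). Orc6 of the origin recognition complex had 424 and 503 at 14.5 dpc, against 308 and 396 at 12.5 dpc and 239.7 and 287 at 16.5 dpc. Orc6 differed by 0.58 on the log2 scale (SE 0.16, adjusted p = 0.14). Pcna, the polymerase clamp, had 1393 and 1258 at 14.5 dpc, against 1245 and 1158 at 12.5 dpc and 709.9 and 818 at 16.5 dpc. Pcna differed by 0.46 on the log2 scale (SE 0.19, adjusted p = 0.31). In both, 16.5 dpc had the lowest samples. Surface and mesothelial epithelium genes had 4 above (25%) and none below among 16 and none called, with a median of 0.51. Upk1b, a uroplakin of mesothelium, had 943 and 1209.5 at 14.5 dpc, against 492 and 719 at 12.5 dpc and 687 and 924 at 16.5 dpc. Upk1b differed by 0.62 on the log2 scale (SE 0.26, adjusted p = 0.34). Retinoic acid genes had 2 peaks, Stra8 and Rec8, among 16, with 4 above (25%) and 2 below (12.5%) all 4 samples and a median of 0.14. Aldh1a2, which makes retinoic acid, had 323 and 417 at 14.5 dpc, against 310.2 and 318 at 12.5 dpc and 268 and 248 at 16.5 dpc, above all 4 (adjusted p = 0.5). Rbp4, the retinol carrier, had 38 and 82.1 at 14.5 dpc, against 3.4 and 5.2 at 12.5 dpc and 29.4 and 5.8 at 16.5 dpc, also above all 4 (adjusted p = 0.1).

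Marker genes of the testis, blood and stress were read for other content of the pools. Sertoli and Leydig genes had none called among 15, 3 above (20%) and none below. Sox9, the Sertoli factor, had 822 and 776 at 14.5 dpc, against 644 and 823 at 12.5 dpc and 521 and 477 at 16.5 dpc, overlapping with 12.5 dpc. The summed Sertoli markers Dhh, Ptgds and Sox9 were 1643 and 1631 at 14.5 dpc, against 1367 and 1676 at 12.5 dpc and 1230 and 1103 at 16.5 dpc. On the Sox9 and Ptgds probe sets the suffix f marks probes shared by a sequence family. Their signals may thus not be of these genes alone. Amh, Cyp17a1 and Insl3 had no tested probe set. Erythroid genes had none called as a peak or dip among 16, and the embryonic alpha-like globin Hba-x had 741 and 839 at 14.5 dpc, against 4077 and 4952 at 12.5 dpc and 142 and 86.5 at 16.5 dpc, in descending order over the 3 ages (adjusted p = 0.88). Immediate early, heat shock and tissue handling genes had none called among 27, 1 above (3.7%) and 1 below (3.7%), with a median of 0.07. The 1 above was Fos, an early response factor. It had 45.2 and 58.3 at 14.5 dpc, against 9.7 and 18 at 12.5 dpc and 14.3 and 13.6 at 16.5 dpc. Fos differed by 1.18 on the log2 scale (SE 0.28, adjusted p = 0.1). DNA and histone methylation genes, imprinted genes, cholesterol and glycolysis genes, cell death genes and mesonephros genes had no peak or dip on the brightest probe set of a member, with medians between -0.19 and 0.02. Of the imprinted genes, Meg3 and Grb10 dipped on a dimmer probe set. Meg3, a long noncoding RNA, had 198 and 156 at 14.5 dpc, against 417 and 551 at 12.5 dpc and 442 and 402 at 16.5 dpc (log2 difference -1.28, adjusted p = 0.049), but overlapped on its brightest (log2 difference -0.54). Grb10, an adaptor of growth factor receptors, had 51.5 and 85 at 14.5 dpc, against 346 and 485 at 12.5 dpc and 209.6 and 137 at 16.5 dpc (log2 difference -1.77, adjusted p = 0.026), but overlapped on its brightest (log2 difference 0.79).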

How the data were processed

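Each deposited value is the signal intensity of a probe set on an array, scaled by the authors to a mean of 125, per the labels. Detection calls were not used. The array software was not given in the sources. Genes were named from the platform annotation where a probe set had 1 symbol (29131 of 36701 probe sets that are no controls, 724 with several and 6846 with none). Probe sets were tested where the signal reached 50 on at least 2 of 10 arrays. One fit per array type (limma 3.58.1, R 4.3.3, lmFit and eBayes with an intensity trend) used log2(signal + 16) and 5 age groups, with 5 residual degrees of freedom, and Benjamini-Hochberg adjustment ran over the 3 types together. The contrast was the 14.5 dpc mean minus the average of the 12.5 and 16.5 dpc means, that is, the departure from a straight line between them. The steps were tested on simulated data. Named were the 12 largest peaks and dips (9 dips qualified) by the smaller difference from a neighbour, among genes with a mean signal of at least 100 on the higher side, up to 4 called genes per list and a fixed set. All other genes named were chosen after their values were seen. Of 746 list entries, 732 matched as written, 11 by synonym and 3 did not. The members, lists and named genes were chosen with earlier results of these data known. Whether arrays A, B and C of a number carry the same RNA is not stated, but it was assumed where samples were left out or averaged. Same-numbered samples did not deviate together (r between -0.10 and 0.04), so the number was not used as a block. Promoter and gene data are from RefSeq, GRCm38.p6. The number of arrays, 2 per age and array type, limits the precision. Alternatives changed the pseudocount, filter, normalization, spread model, block, adjustment and samples, and the set without f, i and r probe sets was added after seeing the data.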

Additional observations from a re-analysis of the deposited data

How the results depend on the processing

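With 45 peaks, 32 dips, 3 probe sets higher than each neighbour, none lower and 7 meiotic peaks as reported, other settings gave the following. No filter on low signals gave 25 peaks, 11 dips and 4 meiotic peaks. The 6 arrays of 12.5 to 16.5 dpc alone gave 93 peaks and 58 dips. No intensity trend gave 14, 10 and 3 meiotic peaks. A pseudocount of 4 left 1 probe set higher than each neighbour. With the replicate number as a block there were 20 dips and 32 peaks. Leaving out 1 sample at a time gave 10 to 175 peaks, 8 to 127 dips, 0 to 3 probe sets higher and 0 to 1 lower than each neighbour, and 4 to 8 meiotic peaks. The cause of these shifts was not tested. With a pseudocount of 64, quantile normalization, median centring, another mean filter or separate adjustment, each count stayed within 1.5 times of the reported one. Over 996 pairs of a called gene and a setting, 373 missed the threshold and none changed direction. The other probe set of Haus3 had a log2 difference of -0.04. With 2 samples per age and no detection calls, low signals cannot be told from background.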

Other observations

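The threshold ran through a dense field. Polr2i, Mrpl35 and Pigp lay just inside it, each with adjusted p = 0.048. Just outside lay Med21, a Mediator subunit, with 1847 and 1999 at 14.5 dpc, against 536 and 661 at 12.5 dpc and 1094 and 1165 at 16.5 dpc (log2 difference 1.21, SE 0.24, adjusted p = 0.051), and Ttc1, with 443 and 431 at 14.5 dpc, against 51.4 and 132 at 12.5 dpc and 181 and 244 at 16.5 dpc (log2 difference 1.59, SE 0.31, adjusted p = 0.051), both above all 4 samples. Ctsa, a lysosomal protease, lay below all 4, with 119 and 94.8 at 14.5 dpc, against 233 and 192 at 12.5 dpc and 259.6 and 188 at 16.5 dpc (log2 difference -0.92).
Peaks and dips together made up 0.427% of the array A probe sets tested, 0.286% for array B and 0.231% for array C. Within an array type, the 2 samples of 14.5 dpc correlated at 0.965, 0.895 and 0.884 on arrays A, B and C (log2 signals over all probe sets tested), and each correlated with 12.5 dpc at 0.920 to 0.935 on array A. The same range was 0.844 to 0.868 for array B and, for array C, 0.857 to 0.868. With 16.5 dpc, array A gave 0.932 to 0.941, array B 0.851 to 0.863 and array C 0.805 to 0.859. The pair of 16.5 dpc samples itself correlated at 0.856 on array C.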
